A study of Mus musculus with 8 samples.

Results

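The macrophage and myeloid genes described here are 32 genes that mark macrophages and related white cells of the myeloid lineage. They were taken by symbol from a table of 54532 gene identifiers, and all 32 symbols matched exactly 1 identifier each. Of these, 29 had enough reads to be tested among 15857 tested genes, and the 3 that did not were Aif1, Itgam and Ccr2. The libraries came from the lens capsule of wild-type C57BL/6 mice 6 to 8 weeks old, 7 days after eye surgery, with 4 libraries per group. In the ASC group, the injury model of fibrotic cataract, a 26-gauge needle passed through the cornea opened the centre of the anterior capsule. In the sham group the cornea was cut and the capsule was left closed, so a corneal wound is common to both groups. The labels name no allele, transgene or drug, and do not say how many mice or capsules were pooled for a library.

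The lens is an avascular organ enclosed by its capsule, a thick basement membrane lined by lens epithelium, and resident immune cells are few in it. Macrophages are phagocytes that depend on the transcription factor PU.1 (Spi1) and on the growth factor receptor CSF1R. They digest debris in lysosomes, tag targets with complement C1q, present peptides on major histocompatibility complex (MHC) class II molecules and read antibodies through receptors that signal by immunoreceptor tyrosine-based activation motifs (ITAM). In the eye they live in the iris, ciliary body, cornea, vitreous and retina, tissues that lie next to the lens.

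Levels are given in CPM, the read count scaled to a common library size and composition, and 1 read equalled 0.0467 to 0.0744 CPM. Each library held 14420494 to 21141582 counts, of which 3220 to 7452 fell on the 32 genes. The tissue label was met by lens genes: the crystallin Cryaa, the chaperone of the lens cytoplasm, averaged 143845 ± 27937 CPM in sham and 152491 ± 33403 CPM in ASC (SD, n = 4 each). RNA of neighbouring eye tissue was present in every library, with a sum over 8 photoreceptor and retina genes of 961 to 3956 CPM. Reads of the macrophage genes are therefore reads of a preparation that holds more than lens cells. In bulk RNA, fewer cells of a type and less RNA per cell cannot be told apart.

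Promoters of 22 of the 32 genes were in the RefSeq promoter table (GRCm38.p6), and 4 of them are shown. Their genes belong to the C1q and MHC class II groups described further on, and are those of the groups with a match to the letters marked. For C1qa, Cd74 and H2-Ab1 no match was found or no promoter was available. Each sequence shown is the 250 bases before the gene's start, 5′ to 3′ on the gene's strand. Capitals mark the PU box GAGGAA, the core letters bound by PU.1, or the Y box CTGATTGG, a letter pattern of MHC class II promoters, both searched on either strand.
C1qb, chr4:136886201-136886450 (- strand): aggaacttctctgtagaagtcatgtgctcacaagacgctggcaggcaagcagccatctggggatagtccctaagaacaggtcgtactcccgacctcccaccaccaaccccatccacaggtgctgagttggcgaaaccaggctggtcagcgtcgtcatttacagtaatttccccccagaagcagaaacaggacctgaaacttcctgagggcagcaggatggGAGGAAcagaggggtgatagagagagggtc
C1qc, chr4:136892915-136893164 (- strand): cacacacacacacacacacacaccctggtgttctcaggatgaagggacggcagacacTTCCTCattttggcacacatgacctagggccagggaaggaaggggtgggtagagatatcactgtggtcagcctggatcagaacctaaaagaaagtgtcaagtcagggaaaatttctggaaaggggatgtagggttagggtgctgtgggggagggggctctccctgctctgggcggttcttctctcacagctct
H2-Aa, chr17:34287824-34288073 (- strand): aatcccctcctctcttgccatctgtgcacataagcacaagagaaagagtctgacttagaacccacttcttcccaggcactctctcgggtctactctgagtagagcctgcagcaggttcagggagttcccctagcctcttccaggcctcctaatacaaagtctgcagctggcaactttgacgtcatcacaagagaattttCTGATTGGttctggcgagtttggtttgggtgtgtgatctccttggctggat
H2-Eb1, chr17:34305617-34305866 (+ strand): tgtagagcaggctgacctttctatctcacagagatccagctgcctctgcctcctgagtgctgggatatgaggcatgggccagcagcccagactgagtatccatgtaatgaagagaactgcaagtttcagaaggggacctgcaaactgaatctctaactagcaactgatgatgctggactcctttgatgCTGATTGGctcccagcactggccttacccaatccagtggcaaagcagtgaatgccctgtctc

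The PU box letters were found 30 bases before the start of C1qb, and 193 bases before that of C1qc on the opposite strand. They were in 13 of the 24 promoters of these genes (54.2%), against 23.3% of all 32851 promoters of this length. The Y box lay 51 bases before the start of H2-Aa and 62 bases before that of H2-Eb1. It was in these 2 of the 24 promoters (8.33%), against 3.83% of all promoters. The short PU box letters are common, and a match describes the sequence only.

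No macrophage or myeloid gene passed the test of ASC against sham. By edgeR's quasi-likelihood test 0 of 29 were higher and 0 were lower at an adjusted p of 0.05, where 0.631% of all tested genes were higher and 0.391% lower. The lowest adjusted p among the 29 was 0.217, for H2-Ab1. An unadjusted p under 0.05 was reached by 5 of the 29, all on the higher side: Gpnmb, H2-Ab1, H2-Eb1, Cd14 and Mpeg1. That is 17.2%, where 6.82% of all tested genes were higher and 7.90% lower at that p, 14.7% in either direction. DESeq2 called 1 gene, Gpnmb, where it called 1.82% of all genes, and limma-voom called 0, where it called 1.01%.

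The direction of the differences was nearly uniform. The log2 fold change, ASC over sham, was positive for 27 of the 29 genes, where 51.4% of all tested genes were positive. It was at least 1, a doubling, for 7 of them (24.1%), where 2.91% of all tested genes reached that. The median was 0.82 over the 29 genes and 0.01 over all tested genes. The median was 0.54 without sham 1, 0.56 without ASC 2 and 1.04 without ASC 1. The genes were measured in the same libraries, so these counts are not 29 independent observations.

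The spread between libraries was wide. The standard error (SE) of the log2 fold change had a median of 0.54 and ran from 0.17 to 0.79. The 95% confidence interval held a change of 0 for 24 of the 29 genes and a doubling for 26. In 0 of the 29 did the 4 ASC libraries all lie above the 4 sham libraries, as 3.39% of all tested genes did, and in 0 did they all lie below (5.67%).

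**Figure D1:**
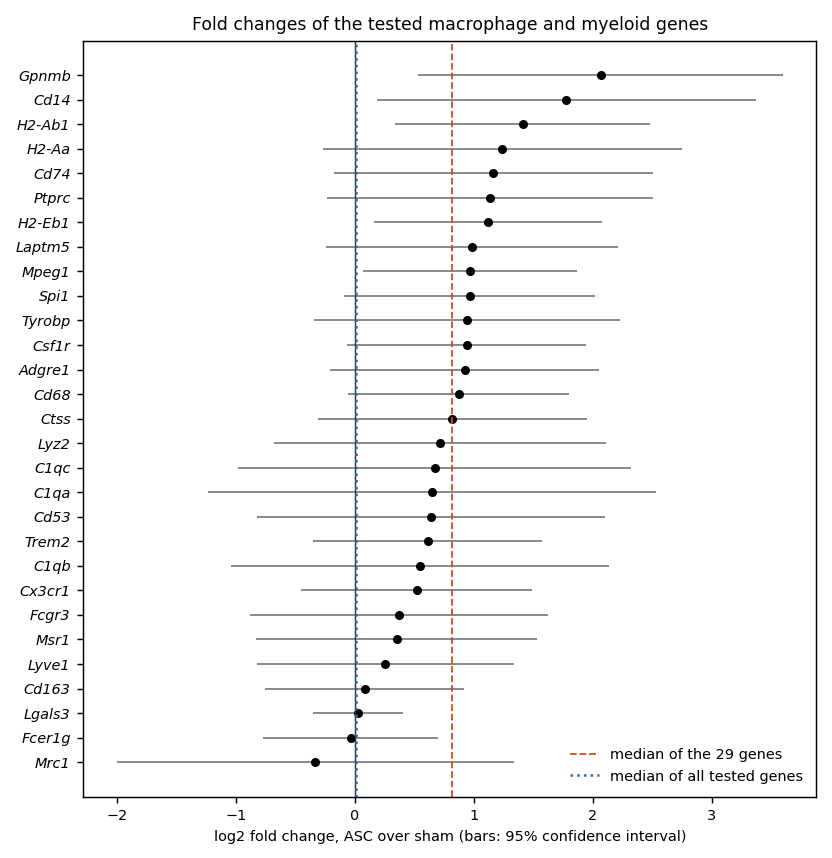
Log2 fold change of ASC over sham (x axis) for the 29 tested genes (y axis), with points for the edgeR estimates and bars for the 95% confidence intervals. Of the points, 27 lie to the right of 0 and most intervals cross it; the dashed line is the median of the 29 genes (0.82) and the dotted line that of all tested genes (0.01).

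The libraries numbered 1 had the lowest levels in both groups. Sham 1 was the lowest of all 8 libraries for 19 of the 29 tested genes and the lowest sham library for 24. ASC 1 was the lowest ASC library for 24 of the 29 and the highest of the 8 for 0. ASC 2 was the highest of the 8 for 17. With Gpnmb and Lgals3 set aside, the other 30 genes summed to 21.9, 92.0, 90.7 and 66.8 CPM in sham 1 to 4 and to 50.6, 160, 128 and 122 CPM in ASC 1 to 4. ASC 1 thus lay within the sham range, and ASC 2, 3 and 4 lay above it.

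Other tissues varied in whether they were low in the libraries numbered 1. The photoreceptor and retina sum was 961 CPM in sham 1, the lowest of the 8, but sham 2 was nearly as low at 1053 CPM. ASC 1, at 1871 CPM, was the lowest of the ASC libraries and close to sham 4 at 1945 CPM. The sum over 9 blood and lymphatic endothelial genes stood at 126 CPM in sham 1, the lowest of the 8. It was 165 CPM in both ASC 1 and ASC 2. Most of it was Pdpn, at 111 CPM in sham 1. None of the other endothelial genes was lowest in sham 1 among the sham libraries. Pecam1, Cdh5, Tie1, Cldn5 and Vwf were highest there. In ASC 1 all of these others but Pecam1 were the lowest of the ASC libraries. Red cell genes went the other way in ASC: their sum was 308 CPM in ASC 1, 121 CPM in ASC 2, 73.9 CPM in ASC 3 and 370 CPM in ASC 4, and 40.1 to 62.8 CPM in sham. The ASC library with the second-highest red cell sum was therefore the one with the lowest macrophage gene sum. Corneal epithelium was the list of other cells with called genes: its keratins Krt12 and Krt5 rose, with log2 fold changes of 3.19 and 3.52 (edgeR adjusted p = 0.0395 and 0.0387). All 4 ASC libraries lay above all 4 sham libraries for both. The call of Krt12 was lost in 5 of 19 alternative analyses (edgeR adjusted p up to 0.130) and that of Krt5 in 8 of 19 (up to 0.135). Most of these left out a single library. Krt12 was at 6.31 CPM and Krt5 at 13.3 CPM in ASC 1, so they were not low in that library. The 6 corneal genes summed to 388 to 605 CPM in sham and 351 to 951 CPM in ASC, most of it Aldh3a1, which did not pass. Krt15 did not pass either (0.56, edgeR adjusted p = 0.434), and Krt14 and Trp63 had too few reads to be tested. The part of retina, vessel, corneal and blood RNA in the macrophage gene levels was not tested.

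**Figure D2:**
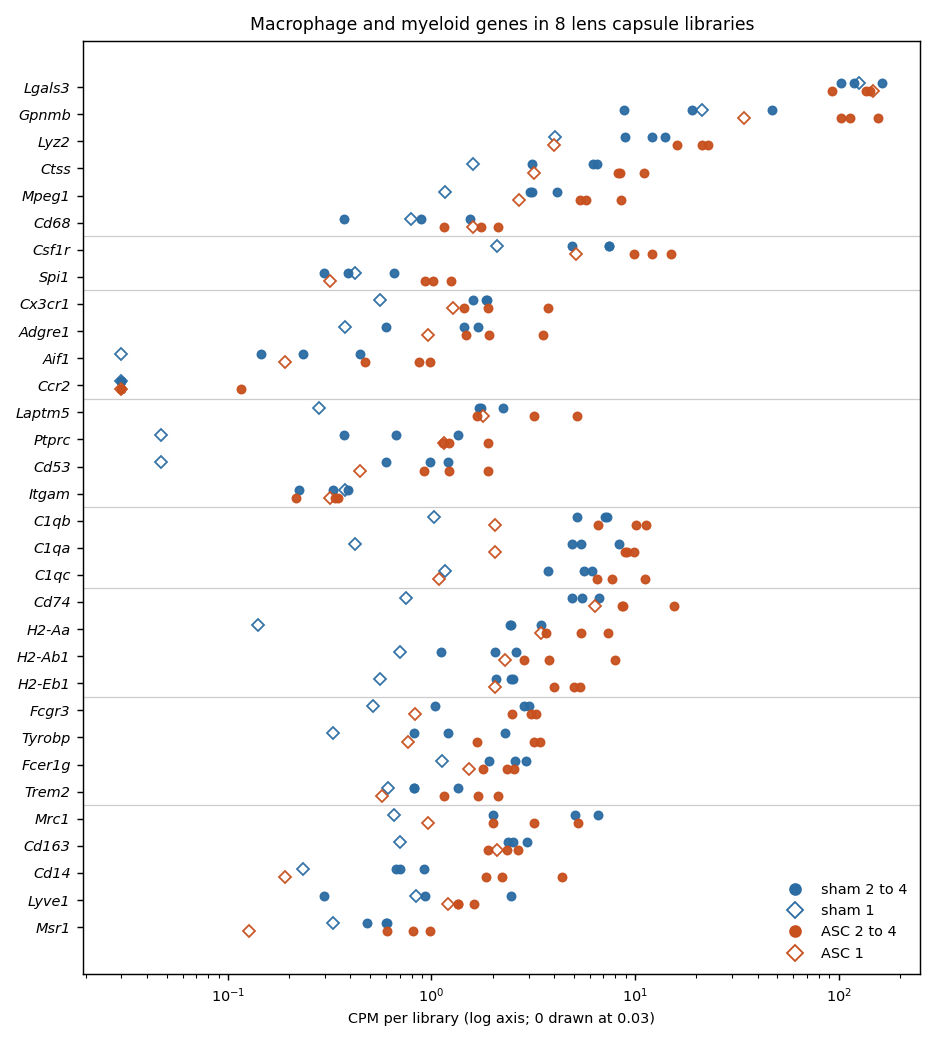
CPM of each gene in each library (x axis, log scale, 0 drawn at 0.03) for the 32 genes (y axis), ordered by role and separated by grey lines. Circles are libraries 2 to 4 and open diamonds the libraries numbered 1; sham 1 is the lowest library for 19 of the 29 tested genes, and the ASC circles lie to the right of the sham circles for many genes.

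Without sham 1 and ASC 1, a choice made after seeing their low values for these same genes, 0 of the 29 genes were called. Of the 29 genes, 14 then had all 3 ASC libraries above all 3 sham libraries, where 8.57% of all tested genes did, and 0 had them below (10.4%). The libraries were left out for being low in these genes, so the count of 14 follows in part from that choice, and the shares over all genes, for which they were not chosen, are no measure of it. They were Gpnmb, Lyz2, Csf1r, Cd14, Cd74, H2-Aa, H2-Ab1, H2-Eb1, C1qa, C1qc, Ctss, Mpeg1, Msr1 and Spi1. The lowest adjusted p of edgeR's test was 0.118 (Cd14, log2 fold change 1.87). The median of the 29 genes was 0.79, close to that with all 8 libraries.

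**Figure D3:**
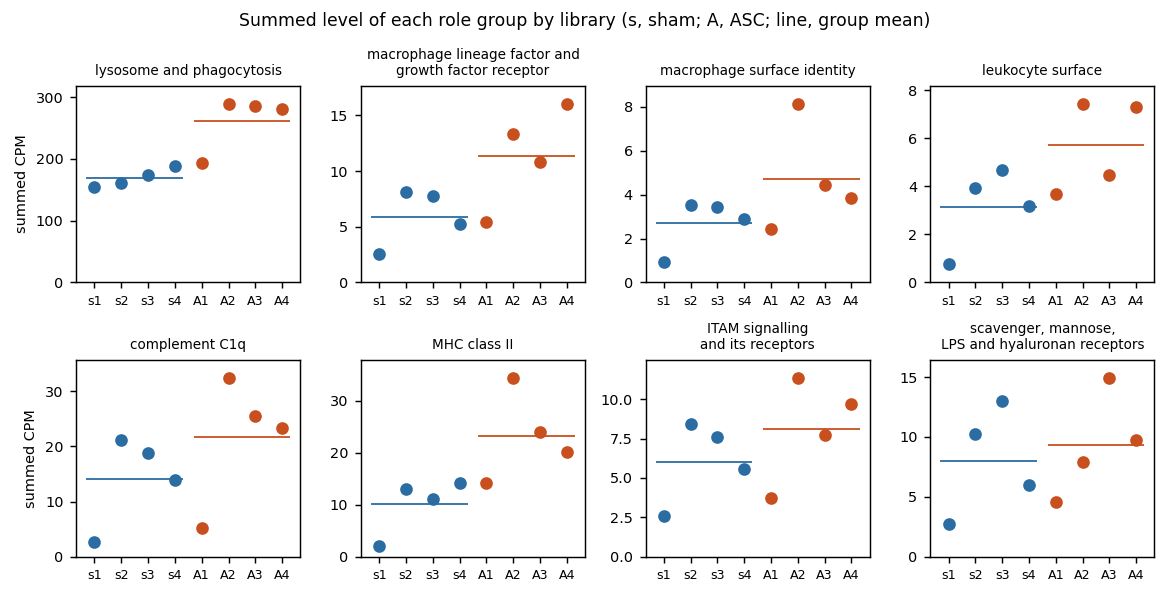
Summed CPM (y axis, from 0) of the genes of each role in the 8 libraries (x axis; s, sham; A, ASC), with lines at the group means. The MHC class II sum ran from 2.15 to 14.1 CPM in sham and from 14.2 to 34.4 CPM in ASC, while the scavenger, mannose, LPS and hyaluronan receptor sums overlapped across most of their range.

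The lineage factor Spi1 and the receptor Csf1r had higher means in ASC. Csf1r (ENSMUSG00000024621), the receptor for the macrophage growth factors CSF1 and IL-34, was at 2.11, 7.47, 7.41 and 4.91 CPM in sham 1 to 4 and at 5.10, 12.1, 9.89 and 15.1 CPM in ASC 1 to 4. Only ASC 1 lay within the sham range of Csf1r. Its log2 fold change was 0.94 (SE 0.44, 95% interval -0.07 to 1.94, edgeR adjusted p = 0.372). Spi1 was at 0.298 to 0.654 CPM in sham and at 0.319, 1.25, 0.926 and 1.01 CPM in ASC 1 to 4, again with ASC 1 alone inside the sham range (0.97, SE 0.49, edgeR adjusted p = 0.385).

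Surface markers of macrophage identity were scarce. Adgre1, which encodes the F4/80 antigen, averaged 1.03 ± 0.642 CPM in sham and 1.97 ± 1.11 CPM in ASC (n = 4 each). Cx3cr1, the fractalkine receptor of resident macrophages and microglia, averaged 1.47 ± 0.62 and 2.09 ± 1.13 CPM. Neither passed the test, with edgeR adjusted p of 0.441 and 0.639. Aif1, the calcium-binding protein IBA1, had 14 reads over the sham and 43 over the ASC libraries. Ccr2, the receptor that draws inflammatory monocytes to the chemokine CCL2, had 0 reads in sham and 2 in ASC, both in ASC 3. A count of 0 allows up to 0.14 to 0.223 CPM in a sham library, where 3 reads are taken as the floor for counting error alone.

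Leukocyte surface genes had higher means in ASC, except Itgam. Ptprc, the pan-leukocyte phosphatase CD45, was at 0.0468, 0.374, 1.36 and 0.670 CPM in sham 1 to 4 and at 1.15, 1.14, 1.21 and 1.89 CPM in ASC 1 to 4. Sham 3 lay among the ASC libraries and the other sham libraries below them (1.14, SE 0.63, edgeR adjusted p = 0.434). The value in sham 1 was 1 read. Without sham 3 the log2 fold change of Ptprc was 1.96 and without sham 1 it was 0.73. Laptm5, a lysosomal membrane protein of blood cells, and the tetraspanin Cd53 were at 0.99 and 0.64 on the log2 scale (edgeR adjusted p = 0.447 and 0.715). Itgam, the CD11b integrin chain of myeloid cells, had 26 reads in sham and 20 in ASC.

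Lysosomal and phagocytic genes held the most abundant member, Lgals3, and the member with the largest fold change, Gpnmb. Lgals3, galectin-3, was at 102 to 164 CPM in sham and 92.9 to 147 CPM in ASC (0.03, SE 0.17, 95% interval -0.35 to 0.40, edgeR adjusted p = 0.963), and the groups overlapped almost fully. Per kilobase of exon it stood at 68.7 CPM in sham, above the next, Lyz2, at 7.42 CPM. Galectin-3 is also made by epithelial cells of the cornea and conjunctiva, so it does not mark macrophages alone. The sum over all 32 genes was 1.58-fold higher in ASC, 2.35-fold higher without it and 1.70-fold higher without both it and Gpnmb, all without a test.

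Lyz2, lysozyme of myeloid cells, was at 4.03, 14.0, 12.1 and 8.93 CPM in sham 1 to 4 and at 4.02, 22.9, 21.3 and 16.1 CPM in ASC 1 to 4 (0.72, SE 0.59, edgeR adjusted p = 0.634). It showed the common pattern, with ASC 1 at the level of sham 1 and the other ASC libraries above every sham library. Lyz2 has a near-identical neighbour, Lyz1, and the sources used here do not give how reads matching both were counted. Ctss, the protease cathepsin S that trims the MHC class II invariant chain, was at 1.59 to 6.49 CPM in sham and 3.19 to 11.0 CPM in ASC (0.82, SE 0.49, edgeR adjusted p = 0.491). Mpeg1, the pore-forming protein perforin-2, was at 1.17, 3.13, 4.12 and 3.05 CPM in sham 1 to 4 and at 2.68, 8.58, 5.38 and 5.74 CPM in ASC 1 to 4 (0.97, SE 0.41, edgeR adjusted p = 0.304). Cd68, the macrophage lysosomal mucin, averaged 0.903 ± 0.487 and 1.66 ± 0.398 CPM (n = 4 each; 0.87, edgeR adjusted p = 0.371).

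Gpnmb (ENSMUSG00000029816) encodes a membrane glycoprotein found in lysosomes of macrophages and in melanosomes, the pigment organelles of melanocytes and pigment epithelium. It was at 21.3, 19.1, 47.1 and 8.86 CPM in sham 1 to 4 and at 34.2, 102, 113 and 156 CPM in ASC 1 to 4. Only ASC 1 lay within the sham range. The log2 fold change was 2.07 (SE 0.64, 95% interval 0.53 to 3.60), and edgeR's adjusted p was 0.222, 0.160 to 0.380 with any library left out. DESeq2 gave an adjusted p of 0.0347.

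Gpnmb was compared with pigment cell genes library by library. Pmel, which builds the fibrils of the melanosome, was at 14.2, 17.3, 37.9 and 6.70 CPM in sham 1 to 4 and at 29.1, 68.6, 126 and 124 CPM in ASC 1 to 4. The ratio of Gpnmb to Pmel was 1.11 to 1.50 in sham and 0.901 to 1.49 in ASC, a 1.67-fold span over the 8 libraries. The ratio of Gpnmb to the C1q sum ran from 0.640 to 8.14, a 12.7-fold span. The order of the libraries by Gpnmb matched that by the summed 10 pigment cell genes at 6 of 8 places, with sham 1 and sham 2 exchanged, and that by Pmel at 4 of 8. That sum stood at 177 to 390 CPM in sham and 290 to 880 CPM in ASC. In edgeR's test 6 of the 10 genes were higher at an unadjusted p under 0.05, where 6.82% of all tested genes were. The adjusted threshold was passed by 0 of the 10 genes. Not all of them had Gpnmb's pattern: Oca2, a melanosome membrane protein, was at 33.99 CPM in ASC 2 and 58.9 to 80.7 CPM in sham (-0.21), and the channel Trpm1 and the factor Mitf were at 0.24 and 0.41, with edgeR adjusted p of 0.747, 0.618 and 0.409. All 10 pigment genes had reads in both groups. The part of pigment cells in the Gpnmb values was not tested.

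**Figure D4:**
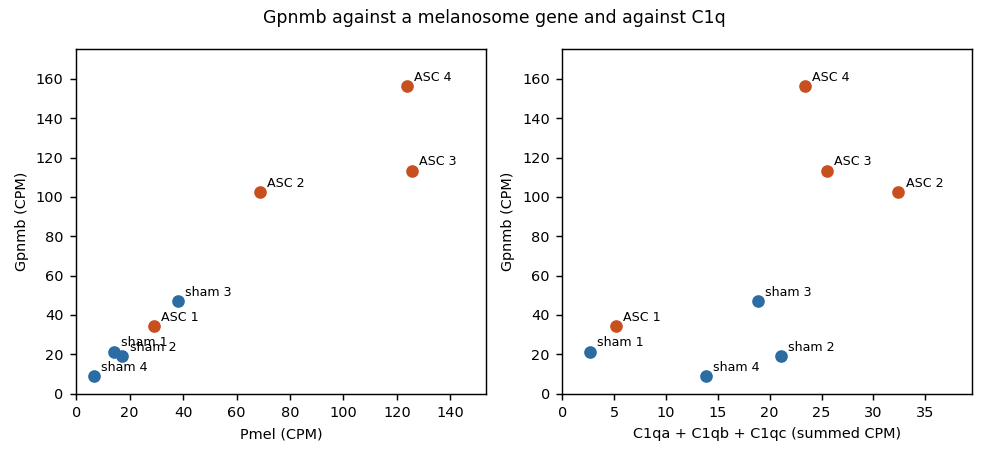
Gpnmb in CPM (y axes) against the melanosome gene Pmel in CPM (left) and against the summed CPM of C1qa, C1qb and C1qc (right), with a point per library, sham in blue and ASC in orange. On the left the points lie near a line, with a Gpnmb to Pmel ratio of 0.901 to 1.50; on the right libraries with like C1q sums differ in Gpnmb.

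The complement C1q chains differed between the groups by less than the spread of the libraries. C1qa, C1qb and C1qc encode the chains of the molecule that starts the classical complement pathway, and in most tissues macrophages make them. C1qa was at 0.421, 8.36, 5.42 and 4.91 CPM in sham 1 to 4 and at 2.04, 9.88, 8.91 and 9.11 CPM in ASC 1 to 4 (0.65, SE 0.79, edgeR adjusted p = 0.765). C1qb averaged 5.16 ± 2.91 CPM in sham and 7.52 ± 4.16 CPM in ASC, and C1qc 4.16 ± 2.25 and 6.62 ± 4.21 CPM (n = 4 each; edgeR adjusted p = 0.768 and 0.727). The chains summed to 2.62 CPM in sham 1 and to 5.17 CPM in ASC 1, against 13.8 to 21.1 CPM in the other sham and 23.4 to 32.4 CPM in the other ASC libraries. The libraries numbered 1 were thus the low pair for all 3 chains, whose promoter sequences are shown above for C1qb and C1qc.

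MHC class II genes had the largest median fold change of any role group, 1.20 on the log2 scale, with 0 of 4 past edgeR's adjusted threshold. At an unadjusted p under 0.05, 2 were higher, where 6.82% of all tested genes were. Cd74, the invariant chain that escorts class II molecules, was at 0.749, 4.90, 5.47 and 6.62 CPM in sham 1 to 4 and at 6.38, 15.6, 8.68 and 8.71 CPM in ASC 1 to 4 (1.17, SE 0.57, edgeR adjusted p = 0.407). ASC 1 lay just under sham 4, and the other ASC libraries above all sham libraries. H2-Ab1 (ENSMUSG00000073421), a class II beta chain, was at 0.702, 2.05, 1.11 and 2.60 CPM in sham 1 to 4 and at 2.30, 7.98, 2.83 and 3.78 CPM in ASC 1 to 4 (1.41, SE 0.48, 95% interval 0.34 to 2.48, edgeR adjusted p = 0.217).

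H2-Eb1 and H2-Aa, the genes whose Y boxes are printed above, had the same order of groups. H2-Eb1, another beta chain, was at 0.562 to 2.52 CPM in sham and at 2.04, 5.38, 5.03 and 3.98 CPM in ASC 1 to 4 (1.12, SE 0.44, edgeR adjusted p = 0.266). H2-Aa, an alpha chain, was at 0.140, 3.46, 2.42 and 2.46 CPM in sham 1 to 4 and at 3.44, 5.43, 7.41 and 3.64 CPM in ASC 1 to 4 (1.24, SE 0.66, edgeR adjusted p = 0.434). The class II sum of ASC 1, 14.2 CPM, was level with the highest sham library, 14.1 CPM, while its C1q sum was below all sham libraries but sham 1. The ratio of the class II to the C1q sum was 0.589 to 1.02 in sham, 2.74 in ASC 1 and 0.859 to 1.06 in the other ASC libraries. That ratio therefore differed from the sham range mainly in 1 library.

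Genes of ITAM signalling had log2 fold changes from -0.03 to 0.94. Tyrobp, the adaptor DAP12, averaged 1.16 ± 0.834 CPM in sham and 2.26 ± 1.26 CPM in ASC (n = 4 each), and Trem2, a lipid-sensing receptor that signals through it, 0.901 ± 0.318 and 1.38 ± 0.668 CPM. Their edgeR adjusted p-values were 0.491 and 0.562. Fcer1g, the gamma chain shared by Fc receptors, averaged 2.13 ± 0.785 CPM in sham and 2.06 ± 0.478 CPM in ASC, a log2 fold change of -0.03 whose sign turned in 6 of 19 alternative analyses. Fcgr3, an IgG receptor that uses this chain, was at 0.37 (edgeR adjusted p = 0.813). The interval of Fcer1g, -0.77 to 0.70, does not hold a doubling.

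Scavenger and pattern receptors split between Cd14 and the rest. Cd14, the coreceptor for bacterial lipopolysaccharide (LPS), was at 0.234, 0.701, 0.920 and 0.670 CPM in sham 1 to 4 and at 0.191, 1.85, 4.40 and 2.23 CPM in ASC 1 to 4. ASC 1 was the lowest of the 8 libraries and the other ASC libraries lay above all sham libraries (1.78, SE 0.72, edgeR adjusted p = 0.291). Without ASC 1 the log2 fold change was 2.16 at an edgeR adjusted p of 0.0707, and without ASC 3 it was 1.17 at 0.552.

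Markers of tissue-resident macrophages had smaller estimated fold changes. Mrc1, the mannose receptor, was at 0.655, 5.04, 6.59 and 2.01 CPM in sham 1 to 4 and at 0.957, 2.01, 5.26 and 3.17 CPM in ASC 1 to 4 (-0.33, SE 0.72, edgeR adjusted p = 0.879). Cd163, the haemoglobin scavenger receptor, averaged 2.14 ± 0.985 and 2.26 ± 0.329 CPM (n = 4 each; 0.08, 95% interval -0.75 to 0.92, edgeR adjusted p = 0.949). The groups overlapped for both. Msr1, the class A scavenger receptor, and Lyve1, a hyaluronan receptor of some resident macrophages and of lymphatic endothelium, were at 0.35 and 0.26 (edgeR adjusted p = 0.815 and 0.856). Their 95% intervals were -0.83 to 1.53 and -0.82 to 1.34. The intervals of Mrc1, Msr1 and Lyve1 thus hold a doubling. Without sham 4 the sign of Lyve1 turned, and scaling by library totals turned that of Cd163. Whether Mrc1 or Cd163 differed from Cd14 or the class II genes in their change was not tested.

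Genes that act with these markers were mostly without a call, where 0.631% of all tested genes were called higher and 0.391% lower. Of 11 monocyte chemokines and receptors 5 were tested and 1, Ccl2, passed edgeR's adjusted threshold. Ccl2, which attracts monocytes through the receptor CCR2, rose from 13.9 ± 7.83 to 108 ± 25.9 CPM (n = 4 each; log2 fold change 2.95, SE 0.46, edgeR adjusted p = 0.0425). All 4 ASC libraries, 87.5 to 144 CPM, lay above the sham libraries, 5.95 to 21.4 CPM, and ASC 1 was the highest. The library with the most Ccl2 was thus the ASC library with the fewest reads of most macrophage genes. Leaving out any library other than sham 1 ended the call of Ccl2 (adjusted p at most 0.103), as did scaling by library totals (0.0602), keeping genes with a total of at least 10 counts (0.0652) and leaving out both libraries numbered 1 (0.0536). The log2 fold change of Ccl2 stayed between 2.52 and 3.22. Ccl7, named here after its values were seen, averaged 1.41 ± 1.20 CPM in sham and 21.6 ± 12.8 CPM in ASC. Its log2 fold change was 3.87 (SE 0.78), without a call (edgeR adjusted p = 0.0855). All 4 ASC libraries lay above all 4 sham libraries for 2 of the 5, Ccl2 and Ccl7, as for 3.39% of all tested genes. Of the CSF1 axis 3 of 6 genes were tested and 0 passed edgeR's threshold, none of them at an unadjusted p under 0.05, with Csf1 at 0.30 and Csf2ra at -0.19.

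Of 8 other Fc and ITAM components 5 were tested and Syk, the kinase that docks on ITAMs, rose from 0.210 ± 0.118 to 1.33 ± 0.522 CPM (n = 4 each; 2.63, SE 0.54, edgeR adjusted p = 0.0428). Syk rested on 16 sham and 86 ASC reads and lost its call without any 1 library (adjusted p up to 0.114), without both libraries numbered 1 (0.158), with limma-voom (0.0924) and with scaling by library totals (0.0601). ASC 1 was among the 2 highest libraries for Syk, with 27 reads.

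Of 8 macrophage transcription factors 6 were tested, and Cebpb, a factor of inflammatory genes that many cell types use, rose from 4.83 ± 1.38 to 16.1 ± 4.35 CPM (n = 4 each; 1.73, SE 0.24, edgeR adjusted p = 0.0070). Of 11 lipid-handling genes 9 were tested, and Lpl, lipoprotein lipase, fell from 55.5 ± 2.44 to 30.9 ± 4.59 CPM (-0.85, SE 0.11, edgeR adjusted p = 0.00296). Both kept their calls when any single library was left out. Apoe, a lipid carrier of macrophages and glia named here after its values were seen, did not pass, with 212, 1196, 1144 and 974 CPM in sham 1 to 4 and 455, 1565, 1557 and 1226 CPM in ASC 1 to 4. Apoe repeated the low values of the libraries numbered 1, but its list as a whole did not. Among genes also named after their values were seen, Axl and Clec7a shared the pattern and Fabp5, the list's most abundant gene, did not. ASC 1 had the most Fabp5 of all libraries (3834 CPM), and sham 1 (1743 CPM) exceeded sham 2 and sham 3. Lpl was not low in sham 1 either (55.5 CPM).

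Of 11 genes of class II loading and its regulators 8 were tested, of 21 lysosomal genes 20, and of 10 activation cytokines and enzymes 2. Past edgeR's threshold were 0 of each, with 1, 8 and 1 at an unadjusted p under 0.05, all higher in ASC. Of all tested genes 6.82% were higher at that p. Lgmn, the lysosomal protease legumain, averaged 78.7 ± 3.19 CPM in sham and 117 ± 21.0 CPM in ASC (n = 4 each; 0.57, edgeR adjusted p = 0.0580), and Rfxap, a subunit of the factor that binds class II promoters, was at -0.10. The most abundant lysosomal gene, Ctsl, was at 1741 ± 224 and 1694 ± 366 CPM, and Psap at 0.29 (edgeR adjusted p = 0.308). Il1b was at -0.14, and Hmox1, the haem-degrading enzyme, averaged 22.9 ± 14.6 CPM in sham and 158 ± 114 CPM in ASC (2.79, edgeR adjusted p = 0.203), with the highest value, 306 CPM, in ASC 1. Over these lists the median log2 fold change was 0.04, 0.22 and 1.33, the last from only 2 tested genes, Il1b and Hmox1.

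Defining markers of other white cells had few reads. Of 12 neutrophil genes 3 (Ly6g, Elane and Cxcr2) had 0 reads in all 8 libraries, and the list summed to 1.27 to 2.25 CPM in sham and 2.88 to 5.26 CPM in ASC. Of 14 T, B and NK cell genes 5 had 0 reads in sham, and the list summed to 1.45 to 2.23 and 1.79 to 3.64 CPM. Genes of dendritic cells summed to 3.83 to 7.07 CPM in sham and 3.63 to 5.21 CPM in ASC, most of it Zbtb46 with 35 to 84 reads a library, and those of mast cells to 6.70 to 11.1 and 5.10 to 8.77 CPM, most of it Kit with 86 to 233 reads a library. The microglia list, 379 to 482 CPM in sham and 390 to 517 CPM in ASC, was carried by Olfml3 and Sall1. Its more selective genes P2ry12 and Tmem119 averaged 0.279 and 0.256 CPM in sham and 0.615 and 0.642 CPM in ASC. Siglech and Gpr34 averaged 0.638 and 0.717 CPM in sham and 1.14 and 0.861 CPM in ASC. Over these white cell lists 0 genes passed edgeR's threshold. At an unadjusted p under 0.05, 1 neutrophil gene, Ltf, was higher, and Kit and the microglia gene Sall1 were lower. Of all tested genes 6.82% were higher and 7.90% lower at that p.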

How the data were processed

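Read counts per gene from 8 mouse lens capsule libraries, 4 sham and 4 ASC, were analysed. The deposited values were raw whole-number read counts. CASAVA, fastp, HISAT2 2.0.5 and featureCounts 1.5.0-p3 are named, per the submitters' processing notes. Not given in the sources used here are the build, annotation, strand setting and rule for reads matching several genes, so overlapping or similar genes may share reads. The comparison used edgeR 4.0.16 (R 4.3.3): filterByExpr chose the genes, TMM gave the scaling, and ASC and sham were compared by robust quasi-likelihood F tests and Benjamini-Hochberg adjustment over all 15857 tested genes and a threshold of 0.05. SEs are the log2 fold change divided by the square root of F. P-values measure the spread between these libraries, labelled biological replicates. CPM per kilobase used exon lengths of GENCODE M21. Symbols were matched for 54409 of 54532 identifiers.

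The members, gene lists and motifs were chosen with earlier results of these data known. All 32 members are named; of each other pathway list, up to 3 called genes or else its 2 most abundant. Alternatives were DESeq2 1.42.0, limma-voom (limma 3.58.1), other scalings and low-count filters, no robust estimation, a replicate block and each library left out. The labels name no molecular identifiers, so reads may not be independent molecules and floors of 3 reads cover counting error only. A list of further complement genes is not reported here.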

Additional observations from a re-analysis of the deposited data

Results flagged for a closer look

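Among 81 sets of 4 libraries (each gene, each role sum and the sum over all genes, within a group), 5 had a highest or lowest library set apart from the other 3 by more than Dixon's critical value for 4 samples allows. Chance flags about 1 in 20 such sets. Ptprc was at 1.89 CPM in ASC 4, above 1.14 to 1.21 CPM in the other ASC libraries. C1qa was at 2.04 CPM in ASC 1, below 8.91 to 9.88 CPM. Ccr2 was at 0.116 CPM in ASC 3, which is 2 reads, with 0 reads in the other ASC libraries. The sum over lysosomal and phagocytic genes was 193 CPM in ASC 1, below 281 to 290 CPM. The sum over all 32 genes was 168 CPM in sham 1, below 230 to 240 CPM in the other sham libraries.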

How the results depend on the processing

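The count of macrophage and myeloid genes past the threshold was 0 higher and 0 lower in every alternative but 2. DESeq2 called 1 of 32 higher (Gpnmb, 3.1%), where 1.82% of its 31446 genes were called in either direction. With no low count filter 4 of 32 were called higher (Cd14, H2-Ab1, H2-Eb1 and Mpeg1, 12.5%), where 2.26% of 31455 genes were called in either direction. The cause was not tested. Counts over all genes, 162 here, were 571 with DESeq2, 712 with no filter, 56 to 228 with single libraries left out and 70 without both libraries numbered 1. The summed level was 1.58-fold higher in ASC and 2.35-fold without Lgals3; by leaving out single libraries it was 1.46 to 1.75. Non-overlapping genes went from 0 to 14 without both libraries numbered 1. Scaling by library totals moved the median of all genes to -0.12 and that of the 29 genes to 0.69.

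Signs turned for 5 genes. Mrc1 was at 0.30 with limma-voom, and Fcer1g at 0.042 with limma-voom and 0.0024 with the replicate block. Cd163 was at -0.062 and Lgals3 at -0.086 with library totals, and at -0.185 and -0.049 without both libraries numbered 1. With single libraries left out Mrc1 ranged from -0.815 to 0.143, Cd163 from -0.22 to 0.28, Fcer1g from -0.25 to 0.14, Lgals3 from -0.068 to 0.17 and Lyve1 from -0.029 to 0.95.

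With the replicate number as a block, 169 genes passed in all and 0 of the 29, with a lowest edgeR adjusted p of 0.0760 (Csf1r). At an unadjusted p under 0.05, 15 of the 29 were higher with the block, against 5 in the main fit. That count was 13 without both libraries numbered 1, 9 with limma-voom, 3 with library totals and 2 without ASC 2, with 0 lower in each. The shares of all tested genes at that p were not taken for these alternatives. Same-numbered libraries deviated from their group means with correlations of 0.22, 0.06, 0.21 and -0.09, so the numbers were not taken as pairs; not every library correlated best with its own number. The block also ended the calls of Ccl2 (adjusted p = 0.126) and Syk (0.0779). Of the 32 genes 28 averaged under 10 CPM in both groups, but the SE did not follow depth alone: it was 0.64 for Gpnmb, with 1956 sham and 6693 ASC reads, and 0.34 for Fcer1g at 2.13 and 2.06 CPM.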

Other observations

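Macrophage activation genes too low to be tested went in both directions. Of 8 such genes, 5 had more reads over the ASC than the sham libraries (Il1a, Tnf, Il10, Nos2 and Chil3), 2 had fewer (Arg1 and Retnla) and 1, Il6, had equal reads. Il10, an anti-inflammatory cytokine, had 0 reads in each of the 4 sham libraries and 6, 2, 4 and 3 reads in ASC 1 to 4. Arg1, an arginine-degrading enzyme of alternatively activated macrophages, had 30 reads over the sham libraries, 21 of them in sham 1, and 15 over the ASC libraries. The untested genes of the lipid-handling list were Cst7, a protease inhibitor, with 6 sham and 26 ASC reads, and Itgax, the CD11c integrin chain, with 3 and 21 reads.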
